A study of Mus musculus with 56 samples.

Results

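The glutathione and peroxide defence genes of the mouse were described in prefrontal cortex and nucleus accumbens across inbred strains. The set holds every gene whose symbol on the array begins with Gst, Gpx, Prdx, Txn, Gcl or Mgst, or with Sod and a digit, together with Gsr, Gss and Cat. It comprises 61 of the 18183 genes that had a probe set annotated to a single symbol, and each gene is represented by its brightest such probe set. By family these are 21 Gst, 18 Txn, 8 Gpx, 3 Mgst, 3 Prdx and 3 Sod genes, 4 genes of glutathione synthesis and recycling (Gclc, Gclm, Gss and Gsr) and Cat. Another 6 probe sets that list several symbols, among them 5 for Prdx1, were left out.

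The 56 arrays comprise 29 of prefrontal cortex and 27 of nucleus accumbens, with 1 array for each strain and region. Each array held RNA pooled from 3 male mice of 1 strain, aged 8 to 10 weeks, with tissue dissected from brain slices, so the spread between animals of a strain is not in the data. The 27 strains with both regions were WSB/EiJ, A/J, SWR/J, BALB/cByJ, SM/J, AKR/J, SJL/J, C57BL/6J, RIIIS/J, C58/J, PL/J, C57BR/cdJ, P/J, DBA/2J, NZW/LacJ, CBA/J, NON/LtJ, C3H/HeJ, NOD/LtJ, BUB/BnJ, MA/MyJ, CE/J, KK/HlJ, FVB/NJ, I/LnJ, BTBR T+ tf/J and 129S1/SvImJ. MRL/MpJ and NZO/HILtJ have cortex alone and enter levels but no test. All values below are log2 of the deposited array intensity, and a difference is accumbens minus cortex within strain, with its standard error over the 27 strains.

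Aerobic cells turn superoxide into hydrogen peroxide with superoxide dismutases, and remove the peroxide with catalase, glutathione peroxidases and peroxiredoxins. Glutathione peroxidases and glutathione transferases consume glutathione, whose synthesis is limited by glutamate-cysteine ligase, the enzyme made of the Gclc and Gclm subunits. Peroxiredoxins are recycled by thioredoxin and thioredoxin reductase. In brain, glutathione is supplied to neurons largely by astrocytes, and lipid peroxides are a particular hazard because membranes are rich in polyunsaturated fatty acids.

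Many genes of these families carry an antioxidant response element, the site bound by the transcription factor Nrf2. Its core, TGACNNNGC, was searched on either strand in the 250 bases before the most upstream start of each gene in RefSeq's GRCm38.p6 annotation, where 54 of the 61 genes had an entry. The core was present in 6 of the 54 (11.1%), against 10.1% of all 27025 genes in the table, and in 4 of the 29 with an entry whose probe set was measurable (13.8%). These shares are near that of all genes, so the matches do not set the members apart. Those 4 were Gstm5, Gclm, Mgst1 and Sod1, and their windows are shown with the core in capitals. The window of Gstm7, the immediate neighbour of Gstm5, is shown too and held no match, as was the case for most genes in the table. A match describes letters in the window and is not evidence of binding.
Gstm5, chr3:107895604-107895853, plus strand: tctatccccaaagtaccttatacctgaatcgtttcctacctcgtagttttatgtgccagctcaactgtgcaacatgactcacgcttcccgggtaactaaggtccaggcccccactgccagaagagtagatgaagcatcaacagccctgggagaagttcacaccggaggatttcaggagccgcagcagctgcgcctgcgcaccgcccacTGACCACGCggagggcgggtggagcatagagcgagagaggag
Gstm7, chr3:107931818-107932067, minus strand: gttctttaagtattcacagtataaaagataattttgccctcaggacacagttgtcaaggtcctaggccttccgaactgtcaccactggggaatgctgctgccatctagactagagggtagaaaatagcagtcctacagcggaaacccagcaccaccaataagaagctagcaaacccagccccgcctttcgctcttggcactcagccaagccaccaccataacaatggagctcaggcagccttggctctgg
Gclm, chr3:122245307-122245556, plus strand: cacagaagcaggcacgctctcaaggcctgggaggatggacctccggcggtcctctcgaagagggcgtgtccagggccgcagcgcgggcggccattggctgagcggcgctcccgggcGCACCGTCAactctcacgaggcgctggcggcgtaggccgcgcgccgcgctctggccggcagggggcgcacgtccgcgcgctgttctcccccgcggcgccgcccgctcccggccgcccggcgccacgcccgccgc
Mgst1, chr6:138140277-138140526, plus strand: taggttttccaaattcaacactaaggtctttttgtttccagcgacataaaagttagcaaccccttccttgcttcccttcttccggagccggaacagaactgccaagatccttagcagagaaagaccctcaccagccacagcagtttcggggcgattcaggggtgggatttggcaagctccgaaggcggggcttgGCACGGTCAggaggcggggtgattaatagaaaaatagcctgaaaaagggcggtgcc
Sod1, chr16:90220512-90220761, plus strand: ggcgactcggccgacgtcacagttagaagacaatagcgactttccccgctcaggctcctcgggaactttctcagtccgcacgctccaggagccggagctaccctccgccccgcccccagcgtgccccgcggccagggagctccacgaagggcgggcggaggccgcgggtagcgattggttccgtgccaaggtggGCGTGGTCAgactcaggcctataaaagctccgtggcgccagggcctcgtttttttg

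Of the 61 genes, 33 were bright enough to be tested, meaning that they exceeded log2 5 on 13 or more of the 54 arrays with a partner. These were 12 Txn genes, 9 Gst, 3 Prdx, 2 Gpx, 2 Sod, 2 Mgst, Gclc, Gclm and Cat. The other 28 had region means between 1.99 and 4.70, a range in which this array type gives little signal above background. They include Gsr and Gss, which recycle and complete glutathione, the extracellular dismutase Sod3, the mitochondrial reductase Txnrd2, the selenium-containing plasma peroxidase Gpx3, and Gstm2, Gstm3, Gstm4 and Gstm6 of the mu class. The rest were Gpx2, Gpx5, Gpx6, Gpx7, Gpx8, Gsta2, Gsta3, Gstcd, Gsto2, Gstp3, Gstt2, Gstt3, Gstt4, Mgst2, Txndc2, Txndc8, Txndc11, Txnl4b and Txnrd3. A dim probe set does not show that a gene is not expressed.

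Several facts of the series bear on the region comparison. Each region's arrays were normalized in a run of their own, so that region cannot be told apart from run. Over all 10684 features tested the median difference was 0.12. In bulk tissue, fewer cells of a type and less RNA per cell cannot be told apart. The mean log2 level of the oligodendrocyte markers (7 of 8 detected) ran from 7.82 to 10.00 in cortex and from 8.77 to 11.03 in accumbens. That of the astrocyte markers (8 of 8) ran from 9.27 to 9.68 and from 8.82 to 9.81, and that of the microglial markers (8 of 8) from 6.26 to 7.22 and from 6.44 to 7.57. Endothelial markers (3 of 6) ran from 6.32 to 7.15 and from 6.00 to 6.94. Choroid plexus markers (2 of 5) ran from 2.63 to 6.40 in cortex and from 4.80 to 7.30 in accumbens, with medians of 2.74 and 6.05. Spiny neuron markers of the striatum (7 of 8) had medians of 4.52 in cortex and 10.40 in accumbens, and cortical neuron markers (7 of 8) 9.79 and 3.76. Over the accumbens arrays the cortical neuron markers ran from 3.47 to 5.92, and no group of strains was left out of a fit by that level. A single cortex array, that of MA/MyJ, reached 9.56 for the spiny neuron markers against 4.68 on the next array. On 4 accumbens arrays (BALB/cByJ, CE/J, NON/LtJ and WSB/EiJ) the same markers were at 7.26 to 9.59, below the 10.02 to 10.69 of the other 23. The 3′ minus 5′ signal of actin was 1.74 ± 0.27 (SD, n = 27) in cortex and 1.92 ± 0.18 in accumbens, larger in accumbens in 19 of 27 strains (2-sided permutation test, p = 0.0019), while that of Gapdh differed by 0.03 (p = 0.35). Oligodendrocyte level was entered as a covariate in an alternative fit, and the part of the other markers and of RNA quality in the region differences was not tested.

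The defence genes did not move one way between regions, and neither did the features as a whole. Of the 33 tested genes, 14 (42.4%) were higher in accumbens, against 51.0% of all features, and 11 (33.3%) were lower, against 32.9%, at an adjusted p under 0.05. Their median difference was 0.01, beside 0.12 for all features. With all arrays quantile normalized together, 12 were higher and 14 lower, beside 41.8% and 40.9% of all features, and with each array centred on its median these were 13 and 17, beside 42.7% and 39.8%. A region call in either direction was made for 83.9% of all features, so the sizes and directions of single genes carry the description. Among the 25 genes called, the direction held in every strain for 9 and in all strains but 1 for another 6. The same counts were not made over all features, so these do not set the genes apart.

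**Figure D1:**
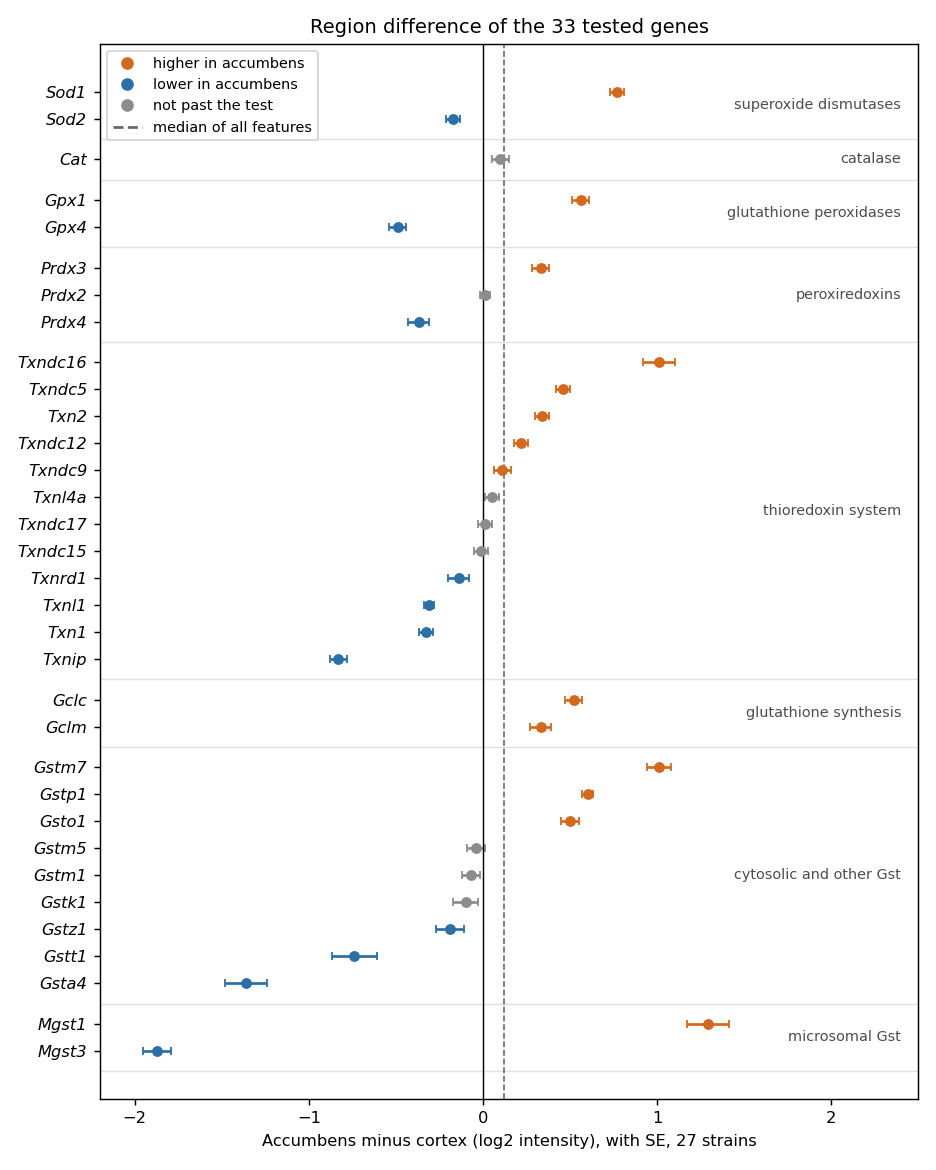
Difference between accumbens and cortex in log2 intensity (horizontal axis, bars are standard errors over 27 strains) for the 33 tested genes, grouped by family, with the median of all features as a dashed line at 0.12. Both superoxide dismutases, both glutathione peroxidases and both microsomal transferases lie on opposite sides of 0, from Mgst3 at -1.87 to Mgst1 at 1.29, while Gclc and Gclm both lie to the right of it.

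Of the superoxide dismutases, Sod1 was higher in accumbens, and Sod2 was lower by a small margin that not every fit kept. Sod1, the cytosolic copper and zinc enzyme, ran from 10.32 (C57BL/6J) through a median of 10.88 to 11.41 (MA/MyJ) in cortex and from 11.45 (FVB/NJ) through 11.64 to 11.90 (A/J) in accumbens. The regions did not overlap, since the lowest accumbens array lay above the highest cortex array, and that cortex array is the one of MA/MyJ that also carries striatal markers. Sod1 was 0.77 ± 0.04 (SE) higher in accumbens, 1.71-fold, and higher in 27 of 27 strains (limma, adjusted p = 4.6e-17). It was the only one of the 33 higher without overlap, beside 6.12% of all features. Of the other 3 kept probe sets of Sod1, 2 were also higher, by 0.09 and 0.43, and the dimmest had a mean of 5.47 in accumbens and lay under log2 5 in cortex (4.40).

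Sod2, the manganese enzyme of mitochondria, ran from 8.30 through 8.59 to 8.98 in cortex and from 8.04 through 8.41 to 9.22 in accumbens. Its values overlapped almost completely, and it fell by 0.17 ± 0.04 on the log2 scale in accumbens, in 21 of 27 strains (adjusted p = 0.00093). With the oligodendrocyte marker level as a covariate the adjusted p was 0.29, and a second Sod2 probe set differed by -0.02 (adjusted p = 0.72). The dimmest kept Sod2 probe set differed by -0.13 ± 0.05 (adjusted p = 0.014). Cat, the peroxisomal enzyme that splits hydrogen peroxide, ran from 6.30 through 6.82 to 7.02 in cortex and from 6.49 through 6.85 to 7.21 in accumbens. The difference of 0.10 ± 0.05 did not pass the test (adjusted p = 0.082) but passed in 4 of the 27 fits that leave out a strain, and the other kept probe set of Cat was 0.44 ± 0.06 higher (adjusted p = 8.2e-08).

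The tested glutathione peroxidases went in opposite directions. Gpx1, the cytosolic enzyme that reduces soluble peroxides, ran from 8.36 (WSB/EiJ) through 8.88 to 9.73 (MA/MyJ) in cortex and from 9.12 (WSB/EiJ) through 9.43 to 9.92 (BALB/cByJ) in accumbens. WSB/EiJ was the lowest strain in both regions, and only the MA/MyJ pair went against the direction. Gpx1 was 0.56 ± 0.05 higher in accumbens, 1.48-fold, in 26 of 27 strains (adjusted p = 2e-11), and 0.60 higher without MA/MyJ.

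Gpx4, which reduces peroxides within membrane lipids and holds back ferroptosis, ran from 10.66 (DBA/2J) through 10.75 to 11.13 (I/LnJ) in cortex and from 9.99 (C3H/HeJ) through 10.27 to 11.01 (BALB/cByJ) in accumbens. Cortex values were packed closely, with an SD of 0.11, and the accumbens values lay below them apart from BALB/cByJ, whose array is low in striatal markers, and 1 further array that reached 10.67 (BTBR T+ tf/J). Gpx4 fell by 0.49 ± 0.05 on the log2 scale, 1.41-fold, in 26 of 27 strains (adjusted p = 6.7e-11), and by 0.53 without BALB/cByJ. A second Gpx4 probe set fell by 0.26.

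Peroxiredoxins reduce peroxide through a reactive cysteine, and the 3 tested members sit in different compartments. Prdx3, the mitochondrial form, ran from 7.26 through 7.87 to 8.29 in cortex and from 7.80 through 8.15 to 8.58 in accumbens, and was 0.33 ± 0.05 higher in 24 of 27 strains (adjusted p = 4.2e-07). Its adjusted p was 0.072 with the oligodendrocyte covariate. Prdx2, the abundant cytosolic form of neurons, ran from 10.00 to 10.74 in cortex and from 10.06 to 10.76 in accumbens, with medians of 10.36 and 10.40. These ranges were nearly the same, and the difference of 0.01 ± 0.03 did not pass the test (adjusted p = 0.75), although Prdx2 passed as lower by 0.09 with centred arrays. Prdx4, the form of the endoplasmic reticulum, was 0.37 ± 0.06 lower in accumbens by its brightest probe set (25 of 27 strains, adjusted p = 2.1e-06) but 0.18 ± 0.06 higher by the other (adjusted p = 0.0059), so its direction is not settled.

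In the thioredoxin system the cytosolic carrier was lower in accumbens, while the probe sets of the mitochondrial one disagreed. Txn1, the cytosolic thioredoxin, ran from 9.69 through 9.96 to 10.28 in cortex and from 9.30 through 9.59 to 10.31 in accumbens, and fell by 0.33 ± 0.04 on the log2 scale in 25 of 27 strains (adjusted p = 3.7e-08). The 2 strains against the direction were BALB/cByJ and WSB/EiJ, both with accumbens arrays low in striatal markers. Txnrd1, the selenoprotein that recharges cytosolic thioredoxin, fell by 0.14 ± 0.06 in 22 of 27 strains (adjusted p = 0.019), and did not pass the test with the oligodendrocyte covariate or without the strains MA/MyJ, NZW/LacJ and RIIIS/J (adjusted p = 0.086).

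Txnip, which binds and blocks reduced thioredoxin, ran from 5.24 (MA/MyJ) through 5.79 to 6.63 (MRL/MpJ) in cortex and from 4.21 (MA/MyJ) through 4.94 to 5.70 (WSB/EiJ) in accumbens. It was lower in accumbens in 27 of 27 strains, but 20 of the 27 accumbens arrays were at or under log2 5, and 14 of them lay within a band of 0.05, so the lower end is close to the background. Against a floor of log2 5 its cortex mean was at least 1.73-fold higher, a bound that was not tested. The limma difference without a floor had an adjusted p of 2.4e-15, and Txnip passed the brightness filter through cortex. Txn2, the mitochondrial thioredoxin, was 0.34 ± 0.04 higher by its brightest probe set (26 of 27 strains). It differed by -0.10 by the other (adjusted p = 0.036), so its direction is not settled.

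The other tested genes whose symbols begin with Txn carry a thioredoxin fold, and several of them work outside peroxide removal. Txndc16 ran from 4.57 (PL/J) through 6.58 to 7.18 (NZO/HILtJ) in cortex and from 6.87 (KK/HlJ) through 7.39 to 7.73 (WSB/EiJ) in accumbens. The spread in cortex, an SD of 0.53, was wider than the 0.23 in accumbens, and Txndc16 was 1.01 ± 0.09 higher in accumbens in 27 of 27 strains (2.01-fold, adjusted p = 4.1e-11). Txndc5, a protein disulfide isomerase of the endoplasmic reticulum, was 0.46 ± 0.04 higher in 27 of 27 strains (adjusted p = 4.9e-13), and its second probe set 1.20 higher. Txndc12, of the same compartment, was 0.22 ± 0.04 higher, but did not pass with quantile normalization (0.08, adjusted p = 0.084) or with the oligodendrocyte covariate (adjusted p = 0.051). Txndc9, a regulator of chaperonin folding, was 0.11 ± 0.05 higher in only 17 of 27 strains (adjusted p = 0.04), a call lost in 12 of the 27 fits that leave out a strain. The second Txndc9 probe set was 0.47 ± 0.04 higher in 27 of 27 strains (adjusted p = 3.1e-13). Txnl1, a thioredoxin-like protein bound to the proteasome, was 0.31 ± 0.03 lower in 27 of 27 strains (adjusted p = 1.3e-11). Txndc15, Txndc17 and the spliceosome protein Txnl4a differed by -0.01, 0.01 and 0.05 and did not pass the test. Txndc15 passed as lower with centred arrays (-0.10, adjusted p = 0.011). It also did so without MA/MyJ and the 4 strains with accumbens arrays low in striatal markers (-0.07, adjusted p = 0.018). Of the other Txndc17 probe sets, one was 0.20 ± 0.05 higher (adjusted p = 0.00068) and one differed by 0.04 (adjusted p = 0.38).

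Both tested genes of glutathione synthesis were higher in accumbens. Gclc, the catalytic subunit of glutamate-cysteine ligase, ran from 6.98 (RIIIS/J) through 7.62 to 8.06 (A/J) in cortex and from 7.81 (CE/J) through 8.12 to 8.57 (BTBR T+ tf/J) in accumbens, and was 0.52 ± 0.05 higher in 27 of 27 strains (1.44-fold, adjusted p = 5.8e-11). Gclm, the modifier subunit that raises the affinity of the enzyme for glutamate, was 0.33 ± 0.06 higher in 22 of 27 strains (adjusted p = 3.4e-06). For both genes the second kept probe set was higher too, by 0.48 and 0.27. With the oligodendrocyte covariate the Gclm difference was 0.29 ± 0.13 (adjusted p = 0.054). Gss and Gsr were too dim to test.

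The glutathione transferases gave both the largest rise and the largest fall of the set. Mgst3, a microsomal transferase and peroxidase, ran from 7.73 (SWR/J) through 8.78 to 9.55 (CBA/J) in cortex and from 6.04 (NZW/LacJ) to 7.64 (NOD/LtJ), with a mean of 6.93, in accumbens. Every accumbens array lay below every cortex array, which was the case for no other tested gene of the set in that direction, beside 5.25% of all features. Mgst3 fell by 1.87 ± 0.08 on the log2 scale, 3.65-fold (adjusted p = 5.9e-20). Mgst1, the microsomal form also found on the outer mitochondrial membrane, ran from 4.76 (WSB/EiJ) through 6.40 to 7.90 (MA/MyJ) in cortex and from 6.72 (DBA/2J) through 7.42 to 8.63 (NON/LtJ) in accumbens. It was 1.29 ± 0.12 higher in accumbens, 2.45-fold, in every strain but MA/MyJ (adjusted p = 2.3e-11), and 1.35 higher without that strain.

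Gsta4, the alpha-class transferase for the lipid peroxidation product 4-hydroxynonenal, ran from 7.23 (C57BL/6J) through 8.14 to 8.60 (NOD/LtJ) in cortex and from 5.85 (SJL/J) through 6.50 to 8.37 (BALB/cByJ) in accumbens. On the 4 accumbens arrays low in striatal markers Gsta4 was at 7.13 to 8.37, against a median of 6.38 on the other 23, of which RIIIS/J reached 8.06. It fell by 1.36 ± 0.12 on the log2 scale, 2.56-fold, in 26 of 27 strains (adjusted p = 6.1e-12). Without MA/MyJ and those 4 strains it fell by 1.54. Gstt1, of the theta class, was above log2 5 on 22 of 29 cortex and 7 of 27 accumbens arrays, so it passed the brightness filter through cortex. Against the floor its cortex mean was at least 1.21-fold higher, a bound that was not tested. The limma difference without a floor had an adjusted p of 4.3e-06. Gstz1, the zeta-class enzyme of tyrosine breakdown, fell by 0.19 ± 0.08 in 20 of 27 strains (adjusted p = 0.028), a call lost without I/LnJ (adjusted p = 0.054).

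Gstp1, the pi-class transferase, ran from 10.74 (MRL/MpJ) through 10.99 to 11.55 (C58/J) in cortex and from 11.35 (MA/MyJ) through 11.60 to 12.43 (C58/J) in accumbens, and was 0.60 ± 0.03 higher in 27 of 27 strains (1.52-fold, adjusted p = 2.7e-16). The highest value of both regions was that of C58/J. Gsto1, of the omega class, which also reduces dehydroascorbate, was 0.50 ± 0.05 higher by its brightest probe set in 26 of 27 strains, and 0.19 ± 0.09 by the other (adjusted p = 0.063). Gstm7 was higher in accumbens in 27 of 27 strains, but 23 of 29 cortex arrays were at or under log2 5 and 13 lay within 0.05 of one another. Its accumbens mean was at least 1.75-fold above that floor, a bound that was not tested. The limma difference without a floor had an adjusted p of 1.4e-13, and Gstm7 passed the brightness filter through accumbens. Gstm1, Gstm5 and Gstk1 did not pass the test, with differences of -0.07, -0.04 and -0.10, and all 3 passed as lower both with quantile normalization and with centring.

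**Figure D2:**
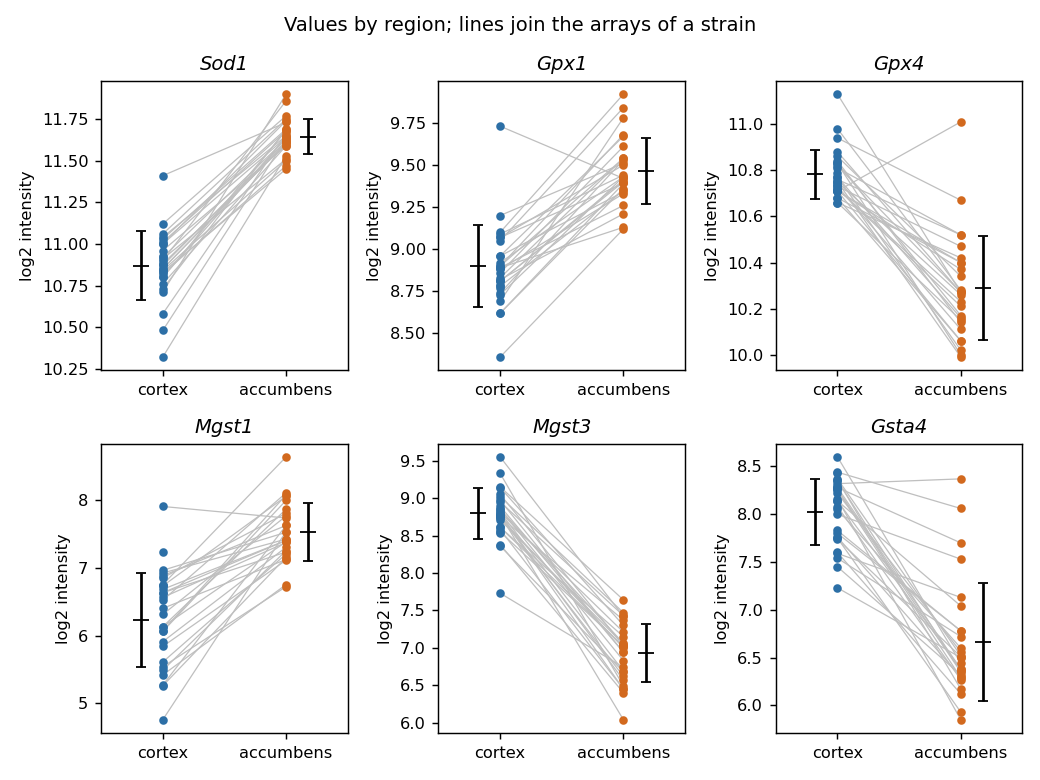
Log2 intensity (vertical axes) of 6 genes in cortex and accumbens, 1 point per array, with lines joining the arrays of a strain and black bars for mean and SD over the 27 paired strains. Sod1 and Mgst3 have no overlap between regions, and the strains that cross the common direction are MA/MyJ for Gpx1 and Mgst1 and BALB/cByJ for Gpx4 and Gsta4.

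Strain differences shared by both regions were tested next, with the strain by region residual as the error. Whether the same 3 mice gave both tissues is not stated in the labels, so a difference between strains cannot be told apart from one between pools. Of the 33 genes, 12 (36.4%) passed, against 20.4% of all features: 6 of the 9 Gst genes (Gstm5, Gstz1, Gstt1, Gstm7, Gstm1 and Gstp1), 4 of the 12 Txn genes (Txnip, Txnl4a, Txndc5 and Txndc17), Gclm and Prdx2. Neither dismutase, neither Gpx, neither Mgst, Cat nor Gclc passed with the brightest probe set. With 1 strain left out, Mgst3 passed in 3 of the 27 fits and Mgst1 in 2, and the mitochondrial thioredoxin Txn2 in 7. The median SD of strain means was 0.18 both for the 33 genes and for all features. The same strain was lowest in both regions for 7 of the 33 genes (21.2%), against 10.8% of all features, and highest for 3 (9.09%), against 10.2%. With all 27 strains, 6 genes passed at an adjusted p under 0.01. With 5 strains left out, MA/MyJ and the 4 with arrays low in striatal markers, 7 passed at 0.05, and Gstm1, Gstt1, Prdx2, Txnip and Txnl4a were lost. The share of all features that passed was not counted at that stricter threshold or in that fit.

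**Figure D3:**
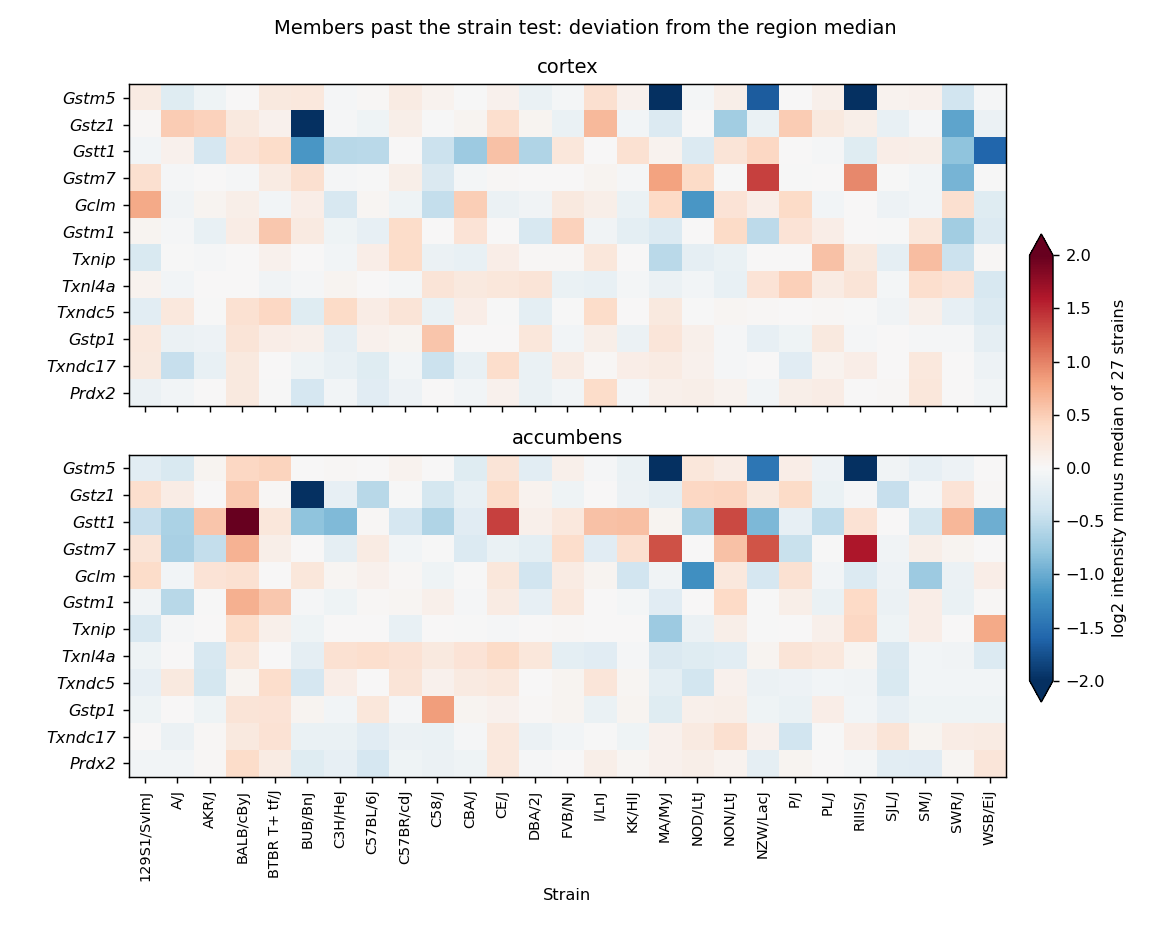
Deviation of each strain (columns) from the median of 27 strains, in log2 units by colour, for the 12 genes past the strain test (rows, ordered by the SD of strain means), cortex above and accumbens below, with colours saturating at 2 units. Coloured cells recur in both panels, blue for Gstm5 in MA/MyJ, NZW/LacJ and RIIIS/J, for Gstz1 in BUB/BnJ and for Gclm in NOD/LtJ, and red for Gstp1 in C58/J.

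Gstm5 gave the sharpest division. This mu-class transferase, known for its abundance in brain and testis, was at 7.68 in RIIIS/J, 8.10 in MA/MyJ, 8.39 in NZO/HILtJ and 8.46 in NZW/LacJ in cortex, and at 9.74 to 10.45 in the other 25 strains. In accumbens it was at 7.21 in RIIIS/J, 7.50 in MA/MyJ and 8.69 in NZW/LacJ, and at 9.83 to 10.58 in the other 24. No array lay between the low and the high values in either region, and the strain means spanned 3.01 log2 units, from RIIIS/J to BTBR T+ tf/J (limma moderated F, adjusted p = 3.7e-13). Gstm5 has a single kept probe set, so whether its low values mean less RNA or a poorer match to the probes was not tested.

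Gstm7 stood on the other side in the same strains. In cortex it was at 5.49 in MA/MyJ, 5.64 in RIIIS/J, 6.05 in NZW/LacJ and 6.13 in NZO/HILtJ, against 3.75 to 5.07 in the other 25. Accumbens values were 6.91 in NZW/LacJ, 6.93 in MA/MyJ and 7.28 in RIIIS/J, against 5.01 to 6.36 in the other 24 (adjusted p = 0.00037). The strains low in Gstm5 were thus the strains high in Gstm7, without overlap in either region. These strains were picked after their values were seen, and the pattern is a description. Without MA/MyJ, NZW/LacJ and RIIIS/J neither strain difference passed, with an adjusted p of 0.27 for Gstm5 and 0.54 for Gstm7 over the other 24 strains, a setting added after seeing the data. One of these arrays, that of MA/MyJ in cortex, is the array that stands apart in striatal markers.

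**Figure D4:**
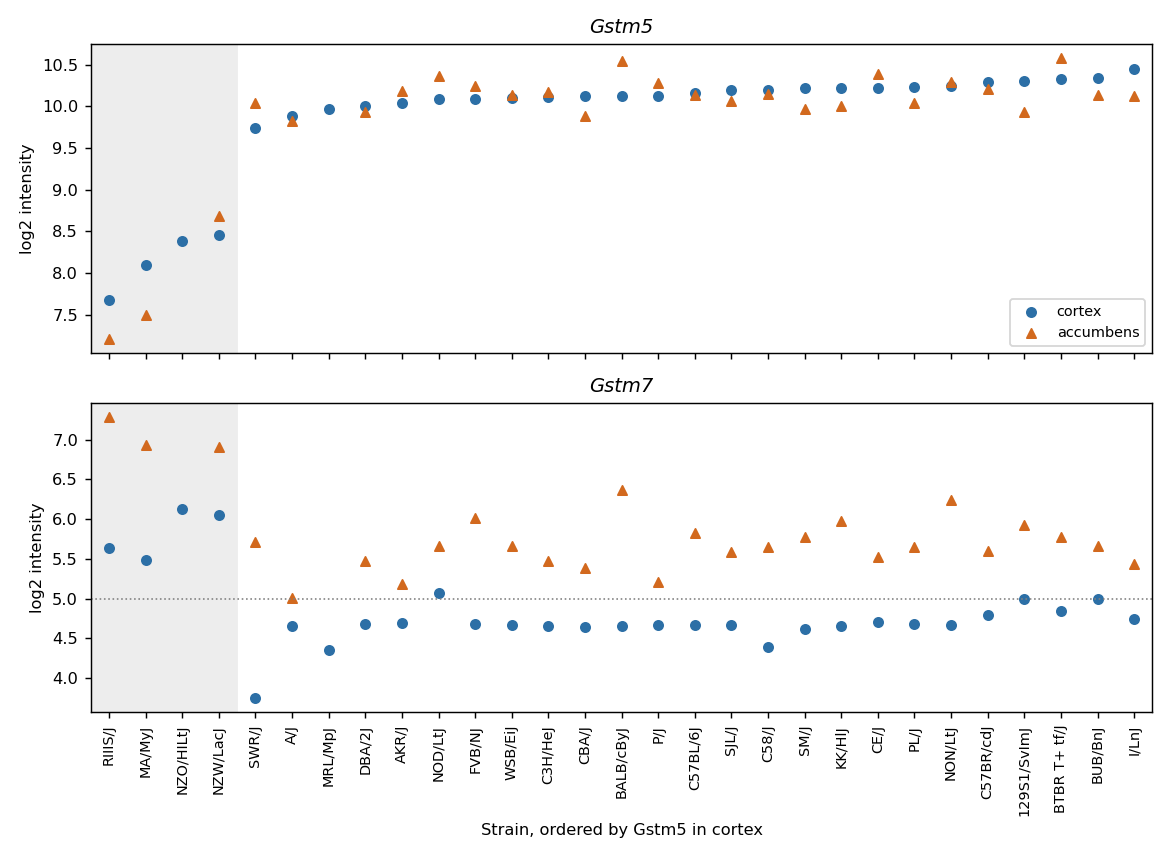
Log2 intensity of Gstm5 (upper panel) and Gstm7 (lower panel) in each strain, ordered by Gstm5 in cortex, with circles for cortex and triangles for accumbens, 1 array each, and a dotted line at log2 5 in the lower panel. The 4 shaded strains are lowest for Gstm5, at 7.21 to 8.69, and highest for Gstm7, at 5.49 to 7.28 within their regions.

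Both genes lie side by side at one end of the mu-class cluster on chromosome 3, in the order Gstm5, Gstm7, Gstm6, Gstm3, Gstm2, Gstm1 and Gstm4 in the GRCm38.p6 annotation. Of the rest of the cluster, Gstm1 was the one tested, and in the 4 strains its brightest probe set was at 8.65 to 9.31 in cortex, inside the 8.48 to 9.72 of the others. Gstm1 passed the strain test on its own account (adjusted p = 0.02), from 8.71 in SWR/J to 9.66 in BTBR T+ tf/J, a call lost without BTBR T+ tf/J (adjusted p = 0.063) and by its second probe set (adjusted p = 0.18). Over all 10684 features, 5 (0.0468%) had MA/MyJ, NZW/LacJ and RIIIS/J beyond every other paired strain, in one direction, in both regions. Beside Gstm5 and Gstm7 they were 4933431E20Rik, Lrif1 and Tmem167b, named here after their values were seen. All 5 lie on chromosome 3. The transcript 4933431E20Rik overlaps Gstm5 and was low with it, at 3.66 to 4.05 in cortex against 7.68 to 8.18, which is a difference between background and a clear signal. Lrif1 and Tmem167b were high in these strains and lie 19 and 23 protein-coding genes from Gstm5. Between them and Gstm5 lie 10 and 11 tested genes, none of which had the pattern apart from those among the 5 named here. NZO/HILtJ, which has no accumbens array and was not used to find them, had 3.67 for 4933431E20Rik in cortex, 7.41 for Lrif1 and 6.62 for Tmem167b, each on the side of the 3 strains.

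Gstz1 was the one tested gene in which a single strain stood at least 1 log2 unit beyond all others in both regions (1 of 33, beside 0.711% of all features). BUB/BnJ was at 2.71 in cortex, where the next strain, SWR/J, was at 4.48 and the median at 5.54. In accumbens it was at 2.78, against 4.76 in C57BL/6J as the next and a median of 5.32. The strain test of Gstz1 (adjusted p = 1.4e-05) rests on that strain, since without it the adjusted p was 0.51. A value under 3 is background on these arrays, and Gstz1 has no second kept probe set.

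Gclm was lowest in NOD/LtJ in both regions, at 6.18 in cortex and 6.52 in accumbens, with the next strains at 6.87 (C58/J) and 7.01 (SM/J). The highest values were those of 129S1/SvImJ, at 8.09 and 8.10. Strain means spanned 1.75 log2 units (adjusted p = 0.00067), but the adjusted p was 0.10 without NOD/LtJ, and 0.21 by the second probe set, in which SM/J was lowest and 129S1/SvImJ again highest. Gstp1 was highest in C58/J, at 11.55 in cortex, where BALB/cByJ followed at 11.25, and at 12.43 in accumbens, where BTBR T+ tf/J followed at 11.87. Its strain test had an adjusted p of 0.0054 with C58/J and 0.27 without.

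Gstt1 was lowest in WSB/EiJ, at 3.85 in cortex and 3.53 in accumbens, and highest in CE/J in cortex (6.02) and BALB/cByJ in accumbens (6.62). Its call (adjusted p = 0.032) was lost without BUB/BnJ, CE/J or WSB/EiJ, and 27 of its 54 paired arrays were above log2 5. BALB/cByJ and CE/J have accumbens arrays low in striatal markers, as have NON/LtJ (5.83 in accumbens) and the lowest strain, WSB/EiJ. Without the 5 strains, which removes both ends of the range, the SD of strain means of Gstt1 was 0.34 in place of 0.54 (adjusted p = 0.34). Txnip was lowest in MA/MyJ in both regions (adjusted p = 0.044, and 0.25 without that strain), and Txndc5 highest in BTBR T+ tf/J in both, at 7.08 and 7.54 (adjusted p = 0.0086, and 0.09 by its second probe set). Txnl4a ran from 7.71 in WSB/EiJ to 8.37 in P/J as means of both regions (adjusted p = 0.012, and 0.061 without the 5 strains). Txndc17, a small cytosolic relative of thioredoxin, ran from 8.78 in P/J to 9.36 in CE/J (adjusted p = 0.018), but did not pass by either of its other probe sets (adjusted p = 0.14 and 0.22) or with centred arrays (0.064). Prdx2 spanned 0.57 between BUB/BnJ and BALB/cByJ, and its call (adjusted p = 0.042) was lost in 9 of the 27 fits that leave out a strain, reaching 0.11 without BUB/BnJ or C57BL/6J, with centred arrays (0.078) and with the oligodendrocyte covariate (0.069).

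Probe sets of one gene did not always give the same answer. Of the 14 genes with more than 1 kept probe set, 7 gave the same region call with each, 3 gave opposite calls (Prdx4, Txn2 and Txnl1), and 4 passed with one and not with another (Cat, Gsto1, Sod2 and Txndc17). The strain call was the same in 9 and differed in 5. The dimmest Txnl1 probe set was 0.73 ± 0.14 higher in accumbens where the other 2 were lower. It was at 8.29 to 9.03 on the 4 accumbens arrays low in striatal markers and at 6.07 to 7.74 on the other 23.

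For Sod2 the dimmest of its probe sets split the strains into 2 classes that the other 2 probe sets of the gene did not show. In cortex it was at 8.37 to 8.76 in BTBR T+ tf/J, BUB/BnJ, CE/J, NOD/LtJ, P/J, PL/J and SJL/J, and at 7.05 to 7.53 in 21 other strains. The same 7 strains were at 8.20 to 8.62 in accumbens, against 6.94 to 7.62 in 19 others (adjusted p = 1.1e-09, from the fit over all kept probe sets). C57BR/cdJ was at 8.21 in cortex but 7.19 in accumbens. By the brightest probe set the 7 strains were at 8.35 to 8.70 in cortex, overlapping the 8.43 to 8.98 of the 21 others, and by the second at 8.07 to 8.58 against 8.23 to 8.80. Whether the split comes from the transcript, its 3′ end or the match to the probes was not tested.

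**Figure D5:**
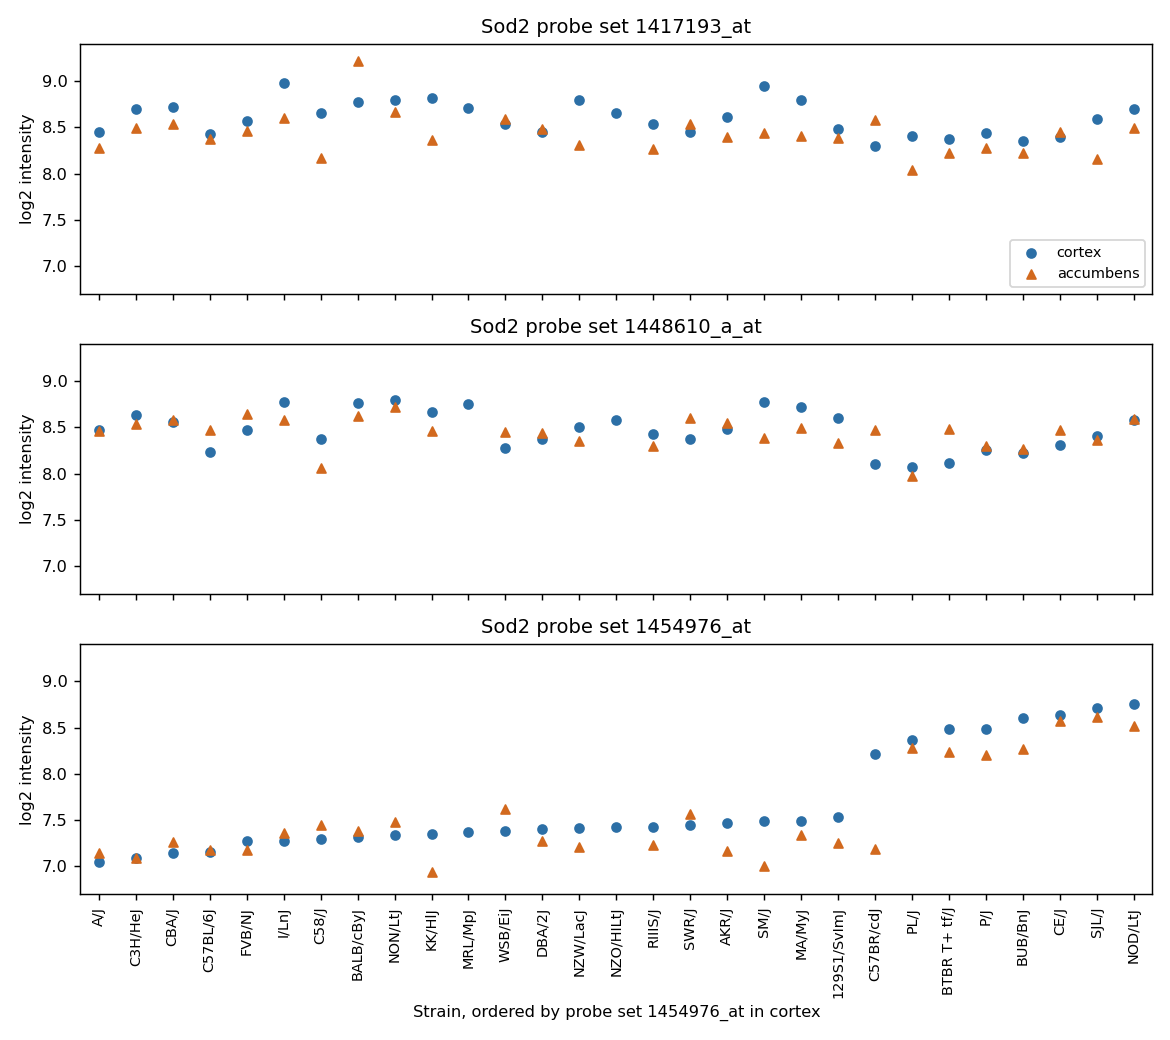
Log2 intensity of the 3 kept Sod2 probe sets (panels) in each strain, ordered by the dimmest probe set in cortex, with circles for cortex and triangles for accumbens. The lowest panel has a step between strains at 6.94 to 7.62 and strains at 8.20 to 8.76, which the upper panels lack, and C57BR/cdJ changes side between regions.

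Genes around glutathione and NADPH supply that the symbol rule leaves out were taken as a list of 50, of which 36 were tested. In accumbens 15 were higher and 11 lower, where 51.0% and 32.9% of all features were, 10 did not pass, and the list median was -0.03 beside 0.12 for all features. Nnt, the mitochondrial transhydrogenase that makes NADPH, was 1.16 ± 0.06 higher, and Sesn1, a sestrin, 0.85 ± 0.05 higher, each in 27 of 27 strains. Ggct, of glutathione breakdown, and Taldo1, of the pentose phosphate pathway, were higher by 0.49 and 0.48. Ptgds, the brain prostaglandin D synthase that belongs to the lipocalins, fell by 2.07 ± 0.19 on the log2 scale. Glrx, the glutathione-dependent reductase glutaredoxin, fell by 1.35 ± 0.13, and Me1, a cytosolic source of NADPH, and Ptges2 by 0.88 and 0.74. Suppliers of NADPH thus lay on both sides.

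Across strains 9 of the 36 passed, where 20.4% of all features did. Among these 9, Glo1, the glyoxalase that uses glutathione, had the largest SD of strain means, 0.73, with a median of 9.08 between PL/J at 8.59 and BALB/cByJ at 10.97 (adjusted p = 5.4e-14). The next of the 9 were Msrb1, a methionine sulfoxide reductase, with an SD of 0.30, Glrx2 with 0.29, the glutathione conjugate exporter Abcc1 with 0.28, Idh1 with 0.26 and Bach1, a repressor at antioxidant response elements, with 0.26. Nfe2l2, which encodes Nrf2 itself, was 0.34 ± 0.07 higher in accumbens (adjusted p = 3.6e-05) and did not pass between strains (adjusted p = 0.082). Its partner Keap1 differed by -0.02 ± 0.04 (adjusted p = 0.71).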

How the data were processed

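Per the labels, each array measured biotin-labelled RNA of 3 pooled male mice. The authors deposited a linear intensity for each probe set. The submitters' processing notes name GCRMA, with a version not given in the sources used here. Here log2 was taken with no pseudocount, the 64 control probe sets were left out, and probe sets above log2 5 on at least 13 of 54 paired arrays were kept, with the brightest per gene (10684 features). limma 3.58.1 in R 4.3.3 was fitted with region and strain as terms: a moderated t for region and a moderated F for strain, with Benjamini-Hochberg adjustment over all features. Strain served as the pairing, since each strain gave both regions. Precision is limited by how many arrays there are. The p-values rest on the strain by region residual of these pools and do not measure the spread between animals. Where a group mean lay below log2 5, that value was the floor for a bound, and no bound was tested. The script was tested on simulated data.

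The members and lists were chosen with earlier results of these data known. Named members were up to 10 higher and 10 lower by size, up to 15 by SD of strain means, the brightest of each family and any with a strain set apart; the other tested members are given so that each is accounted for. From the list of related genes, up to 4 per direction and 6 by strain were named, plus Nfe2l2 and Keap1. Alternatives covered filters, normalization, variance model, threshold, strains left out, probe sets, the pairing and an oligodendrocyte covariate. Figures were drawn with matplotlib 3.10.9.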

Additional observations from a re-analysis of the deposited data

How the results depend on the processing

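Counts of genes called in each direction were within 1.5 times of the reported ones in most settings. The count lower in accumbens was 25 with no filter (all 61 genes tested), 7 with a filter at log2 7 (25 genes tested) and 17 with centred arrays. The count past the strain test was 6 at an adjusted p under 0.01, 7 without 5 strains and 6 without probe sets named _x_at, _s_at or _a_at (24 genes tested). Shares of all features were not counted for these strain counts, which describe the members alone. Leaving out each strain in turn gave 13 to 15 higher, 10 to 12 lower and 9 to 14 past the strain test. Without strain as the pairing block, 13 were higher and 10 lower, with Txndc9 and Gstz1 lost and no other region call changed. With the oligodendrocyte covariate 10 were higher and 10 lower. Directions reversed for Prdx2 and Txndc17 when centred (each -0.09, not called as reported), and with another probe set for Prdx4 (0.18), Txnl1 (0.73) and Txn2 (-0.10); the cause was not tested. Of 891 differences between regions recomputed with a strain left out, 873 kept their call and direction. Values near log2 5 limit Gstm7, Gstt1, Gstz1 and Txnip.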

Other observations

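A few of the genes too dim to test rose above log2 5 on single arrays, and these values are outside any comparison. Gpx3, the secreted selenium peroxidase, was at 7.88 in BALB/cByJ, 7.79 in CE/J and 6.54 in NON/LtJ in accumbens, while the other 24 accumbens arrays had a median of 2.64 and reached at most 4.10. These are 3 of the 4 accumbens arrays low in striatal neuron markers, and no cortex array was above log2 5. Gpx8 was at 5.41 and Gstm2 at 5.28 in the cortex array of MRL/MpJ, against at most 4.44 and 3.80 on the other 28 cortex arrays. Gsr was at 5.14 in the cortex array of NOD/LtJ and at most 4.97 elsewhere in cortex. Gstm4, at the far end of the mu-class cluster, was at 3.58 to 4.40 in cortex in MA/MyJ, NZW/LacJ, RIIIS/J and NZO/HILtJ and at 3.16 to 3.82 in the other 25 strains. In accumbens it was at 3.87 to 4.76 in the 3 of these strains with an array and at 2.74 to 3.92 in the other 24, all under log2 5.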
